A study of Mus musculus with 26 samples.

Results

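The genes described here were the endothelin receptors Ednrb and Ednra, the ligands Edn1 and Edn3, and the endothelin-converting enzyme Ece1, 5 of the 24358 genes counted in Pdgfra/GFP+ cells of the mouse brain and spinal cord. They were picked by name, with their differences by P7 region, mouse line, tracing group, stage and meningeal cells already known. For those contrasts their values are therefore a description and carry no p-value. The contrast between the 2 regions at E13.5 was not named in the choice, and there the test over all genes is given. Its chips entered the stage contrast and it was chosen with earlier results known. Its p-values therefore only set a difference against the spread between chips and are not independent evidence.

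Endothelins are short secreted peptides that are cut from longer precursors, first by furin-type proteases and then by endothelin-converting enzymes such as Ece1. They signal through the G protein-coupled receptors Ednra and Ednrb. Ednra prefers endothelin-1 and is known from smooth muscle and pericytes, whereas Ednrb binds all endothelins about equally well and is known from neural crest, astrocytes and oligodendrocyte precursor cells (OPCs). Edn3 is best known as the Ednrb ligand of migrating neural crest cells, and Edn1 as a product of endothelial cells.

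GFP+ cells were sorted and captured on 26 Fluidigm C1 chips, each with 96 wells, and molecules were counted by STRT-seq, which tags the 5′ end of each cDNA, so that a molecule counts once whatever the length of its gene. Cells came from Pdgfra-H2BGFP knock-in mice, whose nuclear GFP replaces 1 Pdgfra allele and outlasts Pdgfra itself, at E13.5 (6 brain and 3 spinal cord chips) and P7 (2 brain and 5 spinal cord chips), and from Pdgfra-cre-ERT/RCE mice, in which tamoxifen given at E12.5 (txE12.5, 6 chips) or P3 (txP3, 3 chips) marks cells that express Pdgfra at that time, with brains labelled P7 (the methods allow a day more). In both lines the Pdgfra promoter sets which cells carry GFP, so pericytes and vascular and leptomeningeal cells (VLMCs, the fibroblast-like cells of meninges and vessels) can enter the gate together with the oligodendrocyte lineage. Nothing ties a chip to an animal, so errors measure the spread between chips, which may be technical.

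Of 2496 wells, 1515 held at least 1000 molecules. Of these, 168 carried markers of the lineage together with those of neurons or VLMCs and were set aside as doublets, which left 1347 cells, 14 to 77 per assigned chip. The molecules of a chip summed to 56371 to 539996 over its kept cells. No column name was shared between chips. Chip 23, labelled P7 spinal cord, held 14 cells, 12 of them in an embryonic VLMC-like cluster, and results that rest on it are given with and without it. Chip 9 was put in no group because its label and its own name disagree on the stage. Its columns carry the experiment number of the 3 E13.5 spinal cord chips and of no P7 chip. Each experiment number in the column names belongs to 1 condition only, and dissociation coincides with age (mechanical at E13.5, papain at P7), so experiment and dissociation cannot be told apart from the condition.

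Ednrb and Edn3 are the members that the results turn on, and the 250 bases before their RefSeq transcription start (GRCm38.p6) are shown, 5′ to 3′ on the strand of each gene, as the stretch that a reader would inspect first. The Ednrb window lies at chr14:103843702-103843951 on the minus strand. It overlaps no annotated exon and lies within the GENCODE M21 gene, which spans chr14:103814625-103844402. The Edn3 window lies at chr2:174760369-174760618 on the plus strand, directly before a gene that spans chr2:174760619-174784042. Capitals mark matches, on either strand, to any of 6 short motifs: the SOX-type letters ACAAAG and the shorter form ACAAT, the CCAAT box, the TATA-type letters TATAAA, the E-box CAGCTG and the GC box GGGCGG.
Ednrb: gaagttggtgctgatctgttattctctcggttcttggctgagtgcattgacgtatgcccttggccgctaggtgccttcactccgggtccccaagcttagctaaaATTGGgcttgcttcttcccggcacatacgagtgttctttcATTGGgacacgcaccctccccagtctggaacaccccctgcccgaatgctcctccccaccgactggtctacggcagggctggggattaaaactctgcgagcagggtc
Edn3: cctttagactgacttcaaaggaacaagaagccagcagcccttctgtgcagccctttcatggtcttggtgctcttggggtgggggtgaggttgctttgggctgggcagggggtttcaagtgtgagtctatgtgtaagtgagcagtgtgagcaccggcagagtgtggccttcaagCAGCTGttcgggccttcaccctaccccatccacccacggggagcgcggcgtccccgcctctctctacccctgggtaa
The Ednrb window held 2 CCAAT letters, both on the other strand, starting 146 and 106 bases before the start site. CCAAT was present in 33.8% of 32851 windows of the same length. The Edn3 window held 1 CAGCTG, 77 bases before its start, a run present in 13.0% of windows. The other motifs were in neither window. Among all windows ACAAAG was present in 16.5%, the shorter ACAAT in 27.7%, the TATA-type letters in 12.4% and the GC box in 32.7%.

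The receptor Ednrb and its ligand Edn3 were counted mostly in different clusters of the kept cells. Of the 83 cells set aside for lineage and VLMC markers together, 28 held both. Cells were grouped into 13 clusters on genes that excluded the members and the other pathway genes, and clusters were named from marker lists. Cluster 7, which scored as neuron on 1 of its leading genes (Stmn2), is called by its number. Cluster 3 kept the name neuron-like, also with only Stmn2 of the neuron list among its leading genes. The mean log2 enrichment of that list was 1.76 in cluster 3 and 0.89 in cluster 7. Ednrb was highest in the 2 OPC-like clusters, with 1350 counts per 1000000 molecules (CPM) in cluster 6 (95% Poisson interval 1266 to 1437, 283 cells) and 1519 in cluster 9 (1391 to 1657, 116 cells). Ednrb itself was among the 10 leading genes of both clusters, and cluster 6 had 1 OPC marker (Pdgfra) and 1 neural progenitor marker (Fabp7) among them. These intervals cover counting error only.

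Pooled over all chips, the Ednrb level was lower in the cycling-like cluster and in the later classes of the oligodendrocyte lineage. It was 794 in the cycling-like cluster, 257 in committed precursor (COP)-like cells and 110 in newly formed oligodendrocyte (NFOL)-like cells. The counting intervals of the pooled cells did not overlap, but single chips with at least 5 such cells did. Chips ran from 193 to 2455, from 0 to 772 and from 0 to 327 in these classes. These classes drew on different groups, since 79 of the 120 NFOL-like but 48 of the 399 OPC-like cells came from P7 spinal cord, where Ednrb was low. In each P7 group clusters 6 and 9 stood above COP-like and NFOL-like cells, but the order of the other classes varied. On txE12.5 chips the cycling-like cells (1355) were at the level of clusters 6 and 9 (1236 and 1232), COP-like cells at 443 and NFOL-like cells at 185. In P7 spinal cord COP-like cells held 140 and NFOL-like cells 70.8, whereas in P7 brain they held 0 (15 cells) and 213 (5 molecules), and on txP3 chips 542 and 676 (2 cells). Over all chips, the share of cells with a molecule was 75.9% of 399 OPC-like cells, 37.5% of 96 COP-like cells and 25.0% of 120 NFOL-like cells, although the later classes were counted more deeply (medians of 2432, 3582 and 4836 molecules per cell). With every cell thinned to 1000 molecules the shares were 59.1%, 18.0% and 10.0%. In neuron-like cluster 3, 3.33% of 90 cells held a molecule at a median depth of 5403. Of these cells 62 came from E13.5 spinal cord and 25 from chip 9, so the share cannot measure stray molecules on P7 chips.

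Of 2090 Ednrb molecules on assigned chips, 46.4% lay in cluster 6, 24.6% in cluster 9 and 16.4% in the cycling-like cluster. Outside the lineage Ednrb reached 174 CPM in cluster 0, an E13.5 brain cluster that got no name and was led by Ttr and Rspo2. It was 85.7 in the P7 VLMC-like cluster 5 and at most 79.5 in the other clusters.

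Edn3 was highest in the VLMC-like cells, and lower levels were counted elsewhere. It stood at 1087 CPM (943 to 1247) in cluster 5, a VLMC-like cluster of P7 cells, where 84.5% of 58 cells held a molecule. Cluster 5 was led by Ptgds, Vtn and Slc6a13, of which Slc6a13 is on the VLMC list and Vtn on the pericyte list. In cluster 2, VLMC-like cells mostly of E13.5 led by Col3a1 and Lum, it was 127 (35.3% of 170 cells). Cluster 5 held 57.7% of the 352 Edn3 molecules in 4.56% of the cells, and Edn3 was among its 10 leading genes. Outside the VLMC-like classes, cluster 7 held 9.09% of the molecules. Its level was 70.3 (51.1 to 94.4), and 33.0% of its 88 cells held a molecule. In OPC-like cells Edn3 was counted 9 times in 399 cells (8.5 CPM), and in COP-like and NFOL-like cells it was at 0, which allows up to 3.13% and 2.50% of cells with a molecule and sets no limit on cells that express the gene below detection.

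Ednra, the other receptor, marked the pericyte-like cluster 8, with 275 CPM (204 to 363) and 42.9% of 28 cells, ahead of VLMC-like cluster 2 with 66.0. In OPC-like cells it was 12.3. Edn1 was counted 5 times, in 4 of the 13 cells of the endothelial-like cluster 10 and in no other cell. That cluster was led by haemoglobin genes, beside the endothelial marker Cldn5, and 12 of its cells came from txE12.5 chips. Ece1, which makes the active peptides, was the most evenly spread member. It was 298 in endothelial-like cells, 284 in cluster 5, 155 in cluster 2 and 136 in NFOL-like cells, and 60.5 in OPC-like cells. The counting intervals overlapped between endothelial-like cells and cluster 5 and between cluster 2 and NFOL-like cells. They did not overlap between cluster 5 (213 to 371) and cluster 2 (131 to 182). Single chips with at least 5 such cells did overlap, at 140 to 383 in cluster 5 and 61.0 to 272 in cluster 2.

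**Figure D1:**
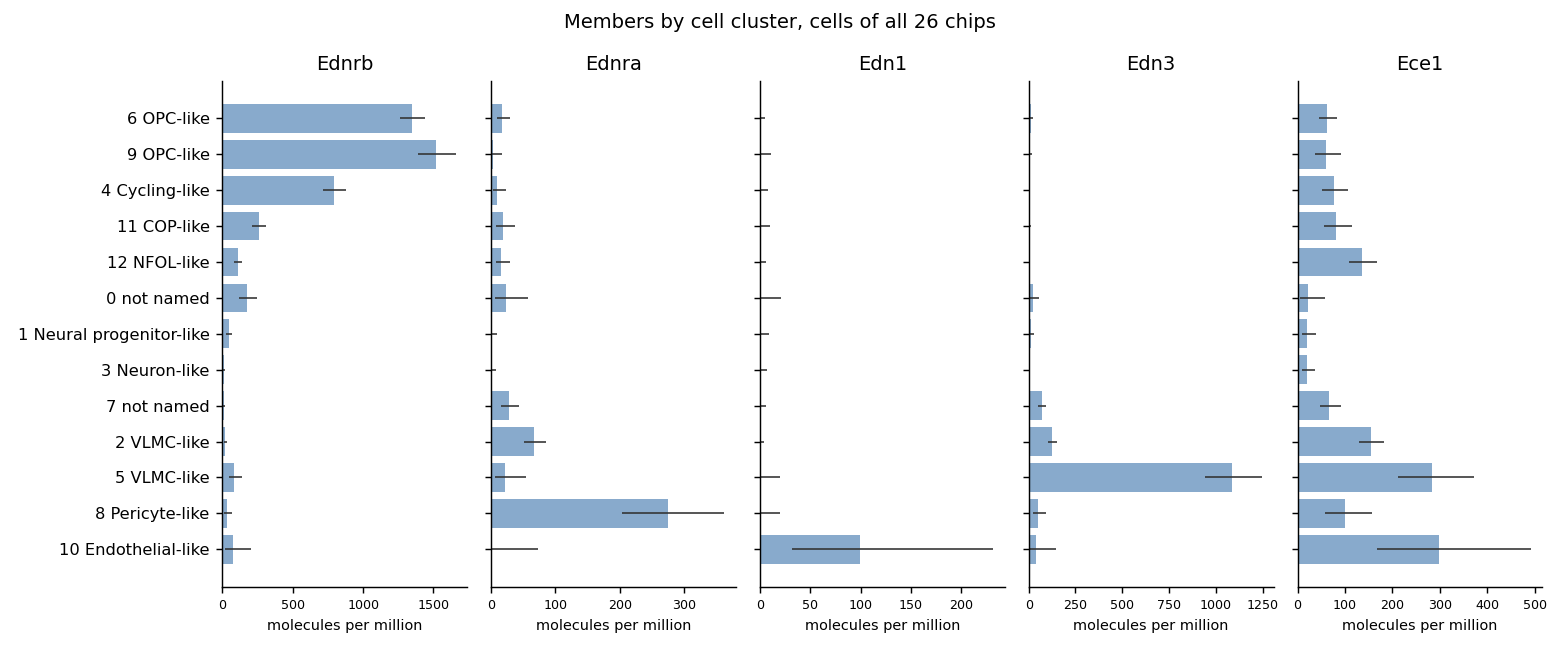
CPM of each member (horizontal axis, its own scale per gene) in each of the 13 clusters (vertical axis), pooled over the cells of all 26 chips. Bars start at 0 and lines are 95% Poisson intervals. Ednrb peaks in OPC-like clusters 6 and 9, Edn3 in VLMC-like cluster 5 (1087), Ednra in pericyte-like cluster 8 (275) and Edn1 in endothelial-like cluster 10.

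Ligand and receptor were rarely counted in the same kept cell. Ednrb was counted in 502 cells and Edn3 in 156, and 19 cells held both, which is 3.78% of the first and 12.2% of the second. Among the 83 cells set aside for carrying lineage and VLMC markers together, 28 held both, so the doublet rule bears on this count directly. Edn3 and Ece1 were counted together in 83 cells, or 53.2% of the Edn3 cells.

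Over the 25 assigned chips, the genes whose level was most like that of Ednrb were Ncald, Ptprz1, Epn2, Gpm6a and Rlbp1 (Pearson r of log2(CPM + 10) from 0.92 to 0.94, out of 8522 genes). Ptprz1 is itself an OPC marker. For Edn3 they were Cxcl12, Serpinf1, Cyp1b1, Enpp1 and Pcca (0.79 to 0.83), for Ednra Klf6, Kctd10, Slc38a4, Tpm4 and Stk40 (0.71 to 0.74), and for Ece1 they included Sgce, Ostc, Tmed5 and Nt5c3b (0.69 to 0.73). All chips of a condition share cell make-up and depth, and these values describe that likeness without a test.

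Ednrb was higher at P7 than at E13.5. In the brain its level on the 6 E13.5 chips was lowest at 34.1, with a median of 78.1 and a highest value of 179, and the 2 P7 chips stood at 1125 and 1770 CPM. Every P7 brain chip lay above every E13.5 brain chip, with a log2 fold change of 4.28 (SE 0.40), or 19.4-fold. Over all 4847 genes tested 14.5% were called between these ages. Within the older style of column names, with 2 chips a side, the log2 difference was 3.60.

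In the spinal cord the E13.5 chips held 5.20, 18.8 and 5.56 Ednrb CPM, and the P7 chips 208, 117, 139, 201 and, on chip 23, 0. The groups did not overlap except through chip 23. The log2 fold change was 3.70 (SE 0.72), and 3.89 (SE 0.44) without chip 23, where 35.2% of all genes were called instead of 17.6%. Kept doublets lowered it to 1.81.

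The sorted population was a different one at each age. Summed OPC markers on the E13.5 brain chips had a median of 411 CPM and those of neurons 2938. OPC-like clusters held at most 9.38% of the cells of an E13.5 brain chip and 1.79% of an E13.5 spinal cord chip. Sox10, which marks the lineage, was at 0, 0 and 3.70 CPM on the E13.5 spinal cord chips. Fewer cells of a type and less RNA per cell cannot be told apart in values summed over a chip, and at E13.5 the OPC-like clusters held 5 cells in all, with 3 Ednrb molecules, too few for a level within the class.

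**Figure D2:**
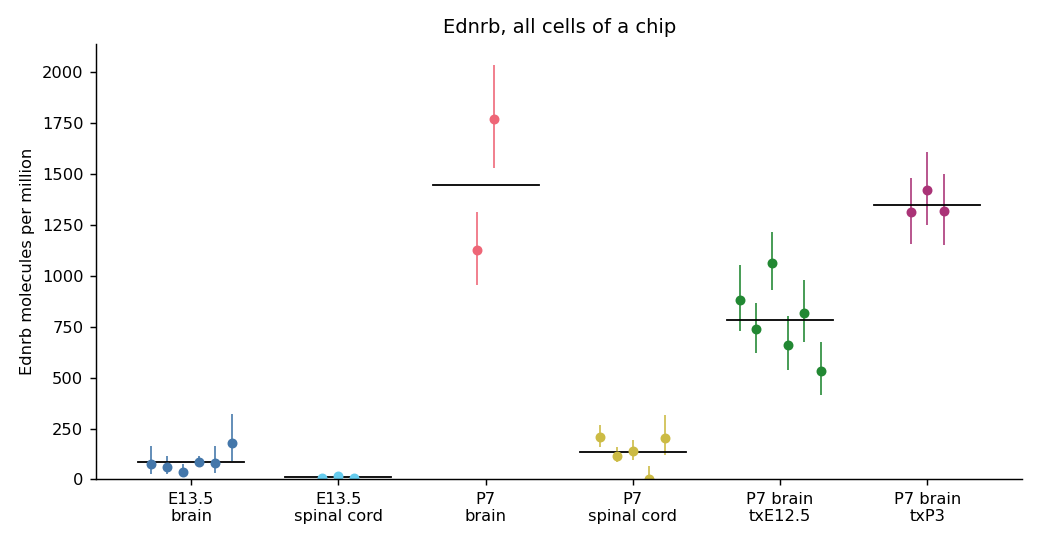
Ednrb CPM (vertical axis, linear from 0) over all kept cells of a chip, by condition. Each point is 1 chip with its 95% Poisson interval and the line is the mean of the chips. The 3 txP3 chips stand between 1312 and 1421, the 6 txE12.5 chips between 532 and 1066, and P7 spinal cord chips at 208 or below.

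Among the other members the age differences were smaller. Edn3 in brain went from 22.7 to 150 on E13.5 chips to 106 and 228 at P7, overlapping, with a log2 fold change of 1.22 (SE 0.57). Ednra in spinal cord was 57.2, 75.2 and 46.3 at E13.5 and 0, 14.6, 17.4, 88.7 (chip 23) and 44.8 at P7, with a log2 fold change of -1.56 (SE 0.73) and, without chip 23, -2.09 (SE 0.57). The ages overlapped through chip 23, and the 44.8 of chip 26 was 4 molecules in 1 cell (interval 12.2 to 115). Ece1 moved little, with log2 fold changes of 0.59 (SE 0.57) in brain and 0.21 (SE 0.36) in spinal cord and overlapping chips in both.

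Of the 71 other genes of the endothelin pathway, 35 could be tested between ages in brain, and 5 rose and 3 fell, against 7.7% of all genes higher and 6.83% lower (edgeR quasi-likelihood test, false discovery rate 0.05). Of the 5 that rose, 3 belong to the calcium and kinase C arm, and Sox10 and the Src-family kinase Fyn were the others. Itpr2, an IP3 receptor that releases calcium, rose from a median of 6.72 to 560 CPM (log2 5.35, SE 0.67). Sox10, a transcription factor known to act on Ednrb and also a gene of the OPC marker list, rose from 13.9 to 615 (log2 5.32, SE 0.62). The kinase C genes Prkcq and Prkcb rose by 4.33 (SE 1.02) and 3.36 (SE 0.50) on the log2 scale. The part of cell make-up in these rises was not tested. Without P7 brain chip 21 or 22, 4 or 5 pathway genes were called in place of 8.

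Of the pathway genes that fell, Rgs16, a brake on G protein signalling, changed by -3.76 (SE 1.20), the G protein subunit Gng2 by -3.17 (SE 0.58) and Gnas, the stimulatory alpha subunit, by -1.37 (SE 0.44). Their adjusted p-values by edgeR were 0.0389, 6.71e-04 and 0.0408. Rgs16 was at 34.6 to 98.6 CPM on the E13.5 brain chips and at 0 and 7.08 on the P7 brain chips, where few molecules were counted.

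In spinal cord 42 of the 71 were tested, and 6 rose and 4 fell, against 8.82% and 8.74% of all genes. Prkcq, Sox10, Itpr2, Fyn and Prkcb rose in both regions, and Gng2 and Gnas fell in both. Itpr2 rose by 5.11 (SE 0.79) and Fyn by 3.02 (SE 0.77). Prkcq was at 0 on every E13.5 spinal cord chip and had a median of 213 at P7. The genes that fell were Gng2 by 2.75, Prkce by 1.86, Pik3ca by 1.46 and Gnas by 0.90 on the log2 scale. Without chip 23, 18 were called (8 higher, 10 lower, against 16.9% and 18.4% of all genes). Without E13.5 chip 4, 7 or 8 or P7 chip 12, 5 or 6 were called, and with chip 9 counted as labelled none was, with 0 genes called in all and 9 pathway genes at an unadjusted p under 0.05.

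At P7 Ednrb was lower in spinal cord than in brain. The spinal cord chips held 208, 117, 139, 201 and 0 (chip 23) and the brain chips 1125 and 1770. The groups did not overlap, and the log2 difference was -3.37 (SE 0.61), or 10.3-fold. Without chip 23 it was -3.16 (SE 0.25). This fit called 1 of 4513 genes, or 0.0222%, and 7.7% without chip 23.

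The cell make-up differed between these groups as well. OPC-like clusters held 58.5% ± 1.5 of the cells of a P7 brain chip (SD, n = 2) and 20.8% ± 8.4 of a P7 spinal cord chip (n = 5), and NFOL-like cells 9.2% ± 2.1 and 32.1% ± 18.5. Chip 23 stood at 7.14% and 0%, and the other spinal cord chips at 20.4% to 29.1% and 33.3% to 45.5%. Within the OPC-like clusters the difference was still there. The 4 spinal cord chips with at least 5 such cells held 402, 298, 244 and 814 Ednrb CPM (7 to 16 cells each), and the brain chips 1976 and 3108 (31 and 27 cells). The log2 difference was -2.73 (SE 0.33), or 6.62-fold, and 2.7% of the 1076 genes tested were called, 0.836% higher and 1.86% lower.

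The difference showed in single cells and in the OPC-like and cycling-like clusters, but not in COP-like cells. Of the spinal cord OPC-like cells 62.5% held no Ednrb molecule, against 15.5% in brain, and the median was 0 against 4.5 molecules per cell. After thinning to 1000 molecules, 23.4% ± 4.3 of cells (n = 4) and 74.3% ± 3.1 (n = 2) held Ednrb. By cluster the pooled levels were 330 against 2224 in cluster 6, 469 against 2994 in cluster 9, and 260 against 1112 in the cycling-like cluster, which is 28 and 9 cells. COP-like cells held 140 in spinal cord (38 cells) and 0 in the 15 brain cells, which allows up to 64.2. The summed OPC marker list of the OPC-like cells was also lower in spinal cord, at 7487 to 9416 against 11540 to 11580, and the summed NFOL list was higher, at 872 to 4394 against 698 to 857. Their part in the Ednrb difference was not tested.

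**Figure D3:**
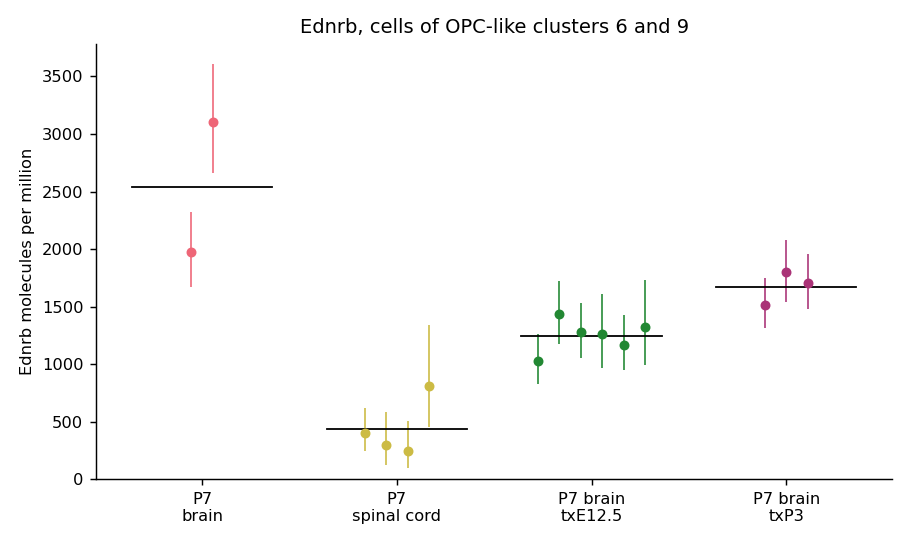
Ednrb CPM (vertical axis, linear from 0) over the cells of OPC-like clusters 6 and 9, for each P7 chip with at least 5 such cells. Points are chips with 95% Poisson intervals and lines are means over chips. The spinal cord chips (244 to 814) lie below the txE12.5 chips (1030 to 1433), these below the txP3 chips (1518 to 1798), and these below the P7 brain chips (1976 and 3108).

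Edn3 differed between the P7 regions in the same direction, with 0, 8.77, 0, 0 and, on chip 23, 35.5 in spinal cord and 106 and 228 in brain. The log2 difference was -4.82 (SE 0.97), resting on 5 molecules in 211 spinal cord cells, 2 of them on chip 23. Without chip 23 it was -5.48 (SE 0.80), and without brain chip 22 -4.06. Cluster 5, which holds most Edn3, had 1 spinal cord cell and 8 brain cells, and its number of cells differed between the regions together with the Edn3 level. Ece1 was 33.6 to 160 in spinal cord and 77.9 and 137 in brain, overlapping, with a log2 difference of -0.26 (SE 0.51), and -0.37 (SE 0.43) without chip 23. Ednra was 9.13 and 14.2 in brain and lay within the spinal cord range of 0 to 88.7.

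Of the other pathway genes 35 were tested at P7 between regions and 0 were called, against 0.0222% of all genes (8 at an unadjusted p under 0.05, and 0 by DESeq2). Without chip 23, 8 were higher in spinal cord and 1 was lower, against 4.11% and 3.59% of all genes. The higher ones were led by Rgs16 (log2 5.27, SE 0.83), Mapk3 (2.99, SE 0.68), Gnb2 (1.45, SE 0.32) and Zeb2 (1.11, SE 0.24), the last a transcription factor of neural crest and oligodendrocytes. The lower one was Sox9 (-2.31, SE 0.46). The fold changes of Rgs16 and Mapk3 rest on few molecules in brain, at 0 and 7.08 CPM and at 0 and 21.2 CPM on the 2 chips. On txE12.5 brain chips Rgs16 ran from 14.9 to 379 and Mapk3 from 15.2 to 89.4. On txP3 brain chips they ran from 0 to 11.6 and from 0 to 34.8. In OPC-like cells 10 could be tested and 1 was called, against 2.7% of all genes (0.836% higher). It was Gnas, higher in spinal cord by 1.70 on the log2 scale (SE 0.39, adjusted p 0.00106 by edgeR), a call that was lost without brain chip 21.

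**Figure D4:**
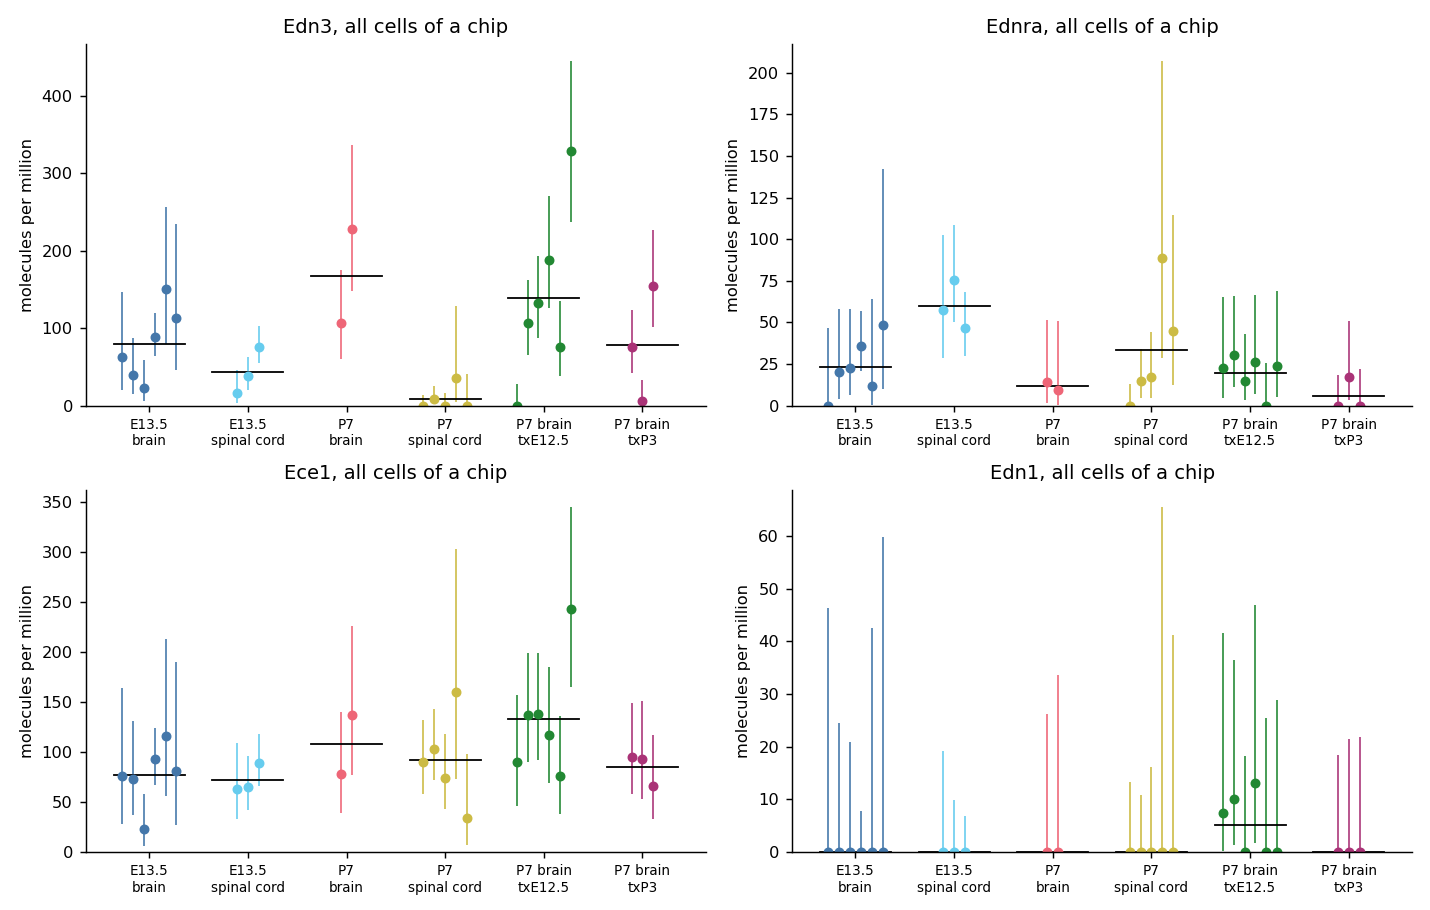
CPM (vertical axes, linear from 0) of Edn3, Ednra, Ece1 and Edn1 over all kept cells of a chip, by condition. Points are chips with 95% Poisson intervals and lines are means. Edn3 reaches 329 on 1 txE12.5 chip and is at most 35.5 in P7 spinal cord, Ednra is 46.3 to 75.2 in E13.5 spinal cord, and Edn1 is above 0 on 3 txE12.5 chips only.

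The mouse lines were compared in P7 brain, 9 Cre-traced chips against the 2 Pdgfra-H2BGFP chips. These chips also differed in strain background, experiment number and style of column names, which cannot be told apart from the line. Over all cells Ednrb overlapped, at 532 to 1421 against 1125 and 1770, with a log2 difference of -0.56 (SE 0.31). In OPC-like cells the traced chips held 1030 to 1798 and the Pdgfra-H2BGFP chips 1976 and 3108. They did not overlap, the log2 difference was -0.81 (SE 0.24), and 0.385% of 3375 genes were called, 0.0296% higher and 0.356% lower. Without Pdgfra-H2BGFP chip 22, the higher of the pair, the difference was -0.47.

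Edn3 and Ece1 differed between lines by less than the SE, and Ednra and Edn1 did not pass the filter. The log2 difference was -0.45 (SE 0.71) for Edn3 and 0.17 (SE 0.45) for Ece1, with a background of 0.0724% of genes called. Of the pathway genes 40 were tested over all cells and 28 in OPC-like cells, and 0 were called in either by edgeR (4 in each at an unadjusted p under 0.05), with 1 in each by DESeq2.

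Tracing time separated Ednrb in the brain without overlap. The txE12.5 chips held 879, 737, 1066, 661, 818 and 532 CPM and the txP3 chips 1312, 1421 and 1318. All txP3 chips were above all txE12.5 chips, with a log2 difference of -0.73 (SE 0.24). In this contrast 0.269% of all genes were called, 0.228% higher and 0.0414% lower. That share counts calls of the test and does not say how many genes had chips without overlap. In OPC-like cells the order held with a smaller step. The txE12.5 chips were at 1030, 1433, 1276, 1261, 1171 and 1324 and the txP3 chips at 1518, 1798 and 1705, a log2 difference of -0.39 (SE 0.22), with 0.0761% of genes called. In these cells the summed VLMC list was 175 to 448 on txE12.5 and 10.1 to 252 on txP3 chips and the summed NFOL list 586 to 1348 and 285 to 758, and their part in the step was not tested.

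OPC-like cells made up 52.8% ± 13.1 of a txE12.5 chip (n = 6) and 69.7% ± 6.0 of a txP3 chip (n = 3). VLMC-like cluster 5 made up 13.4% ± 8.4 and 3.5% ± 1.4. Edn3 was 0, 106, 133, 188, 75.6 and 329 on the txE12.5 chips, where 1 of 53, 8 of 51, 6 of 48, 9 of 61, 5 of 59 and 13 of 48 cells lay in cluster 5. It was 75.1, 5.80 and 154 on the txP3 chips, with 2 of 59, 1 of 47 and 3 of 62 cells there. The groups overlapped, with a log2 difference of 0.87 (SE 0.66), which was 0.46 without txE12.5 chip 17, 0.31 without txP3 chip 19 and 1.76 without txP3 chip 20. Within cluster 5 Edn3 was 939 (778 to 1123) in 42 txE12.5 cells, 1700 (1220 to 2306) in 6 txP3 cells and 1473 (1052 to 2006) in 8 P7 brain cells.

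Ece1 was 75.6 to 243 on txE12.5 chips and 65.3 to 95.2 on txP3 chips, with a log2 difference of 0.71 (SE 0.37). Of 36 pathway genes tested, 1 was called, against 0.269% of all genes (0.228% higher). Rgs16 was higher in txE12.5, at 14.9 to 379 against 0 to 11.6 (log2 4.61, SE 0.97, adjusted p 0.0367), and the call was lost without txE12.5 chip 13, 14 or 15 or without any of the 3 txP3 chips. In OPC-like cells 25 were tested and 0 called, against 0.0761% of all genes (2 at an unadjusted p under 0.05, 0 by DESeq2). These chips also carried more pericyte markers, 96.9 to 2732 summed CPM against 69.6 to 588, whose part in the Rgs16 difference was not tested.

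At E13.5 Ednrb was lower in spinal cord than in brain. Brain chips held 34.1 to 179 with a median of 78.1 and spinal cord chips 5.20, 18.8 and 5.56, without overlap. The log2 difference was -2.87 (SE 0.64), or 7.33-fold, with an adjusted p of 0.0137 by edgeR's quasi-likelihood test over 5021 genes, of which 2.33% were called and 1.14% were called lower. The call was lost without spinal cord chip 4 (adjusted p 0.0845) or chip 8 (0.187).

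It was also lost when doublets were kept, where the log2 difference was -1.03 and the adjusted p 0.689. The 200 kept spinal cord cells held 11 Ednrb molecules, and 4 set-aside cells, all of chip 7, held 35. These 4 had 5 to 13 molecules each. They all carried Ptprz1, 3 of them Olig1 and Olig2, and 3 of them the collagens Col1a1 and Col1a2. The Ednrb of this group therefore depends on whether such cells are taken as pairs or as cells.

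By cluster the E13.5 brain Ednrb lay mainly in cluster 0 (31 of 79 molecules, 39 cells), neural progenitor-like cluster 1 (19 molecules, 135 cells) and the cycling-like cluster (16 molecules, 13 cells), and the spinal cord chips had no cell in clusters 0 and 1. In VLMC-like cluster 2, which both regions share, Ednrb was 29.7 (14.2 to 54.5) in brain and 3.24 (0.082 to 18.1) in spinal cord. Edn3 in this cluster was 169 (128 to 219) and 97.2 (65.6 to 139), and Ednra 59.3 and 61.6.

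Neither Edn3 nor Ece1 passed the test between regions at E13.5. Edn3 was 22.7 to 150 in brain and 15.6, 37.6 and 75.9 in spinal cord (log2 -0.64, SE 0.54, adjusted p 0.797 by edgeR), and Ece1 22.7 to 116 and 62.4 to 88.9 (log2 -0.00, SE 0.44, adjusted p 0.999 by edgeR). Ednra was too low for the filter, at 0 to 48.7 in brain and 46.3 to 75.2 in spinal cord, and 18 pericyte-like cells, all from spinal cord at this age, held 34 of its 64 spinal cord molecules. Edn1 was at 0 on all 9 chips.

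Of the other pathway genes 32 were tested and 3 called, 2 higher in spinal cord (background 1.19%) and 1 lower (background 1.14%). Rgs5 (log2 4.71, SE 0.64), a regulator of G protein signalling that is also on the pericyte list, and Prkce (2.08, SE 0.53) were higher, and Sox9 (-2.67, SE 0.50), a transcription factor of neural progenitors, was lower. Without spinal cord chip 8, 1 was called. The summed pericyte list was 598 to 1408 on the spinal cord chips and 233 to 795 on the brain chips, and the summed neural progenitor list 178 to 291 and 925 to 6177, and their part in these differences was not tested.

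**Figure D5:**
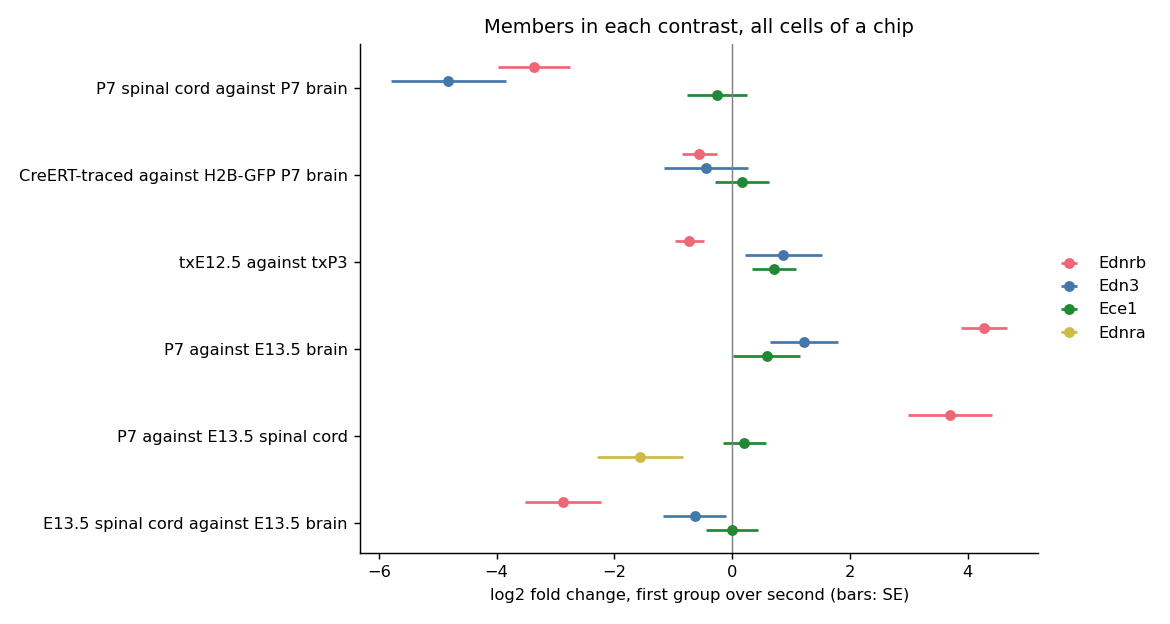
Log2 fold change (horizontal axis, first group over second) of the members that passed the filter, over all kept cells of a chip, in each of the 6 contrasts (vertical axis). Points are edgeR estimates and bars are SE. Ednrb runs from -3.37 between P7 regions to 4.28 between ages in brain, and Ece1 lies within 0.71 of 0 throughout.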

How the data were processed

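The authors deposited raw molecule counts for 26 Fluidigm C1 chips, with a row for each gene symbol and a column for each well. The labels name the build mm10. Aligner and counter: not given in the sources used here. The 129 spike-in and mitochondrial rows were dropped. Wells with at least 1000 molecules were kept. A cell was set aside as a doublet if each marker set of a pair contributed 3 or more molecules, spread over 2 or more genes. Cells were clustered with scanpy 1.11.5 (10000 molecules per cell, 2000 variable genes without members and pathway genes, 30 components, 15 neighbours, Leiden resolution 1.0) and named from marker lists. The shares of cells with a molecule were also computed after thinning to 1000 molecules.

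Molecules were summed per chip and tested with edgeR 4.0.16 (TMM, filterByExpr, quasi-likelihood F-test, Benjamini-Hochberg over all genes tested, threshold 0.05), with DESeq2 1.42.0 as an alternative. Only chips with at least 5 OPC-like cells entered tests on those cells. On simulated counts with 200 genes changed by 2 on the log2 scale, 37% were recovered between P7 regions, 88% between regions at E13.5. Groups came from the labels. The members, the gene lists and the contrasts were chosen with earlier results of these data known. From the pathway list, up to 4 called genes per direction and contrast were named, and for 4 members the 5 genes most like them among those with a mean of at least 20 CPM. CPM is the gene's share of all molecules times 1000000. Intervals are 95%, exact Poisson for levels, and cover counting error only. A count of 0 allows up to 3 counts. The bulk RNA-seq and further P7 brain chips named in the methods were not analysed here. Protein sequences were not used here. For Ece1, 1 of the 5 genes is not reported here.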

Additional observations from a re-analysis of the deposited data

Results flagged for a closer look

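Values were marked where 1 chip stood apart from its group by the gap between neighbours (Dixon's criterion), which chance does for about 1 in 20 groups. Of 58 groups checked, 12 were marked, against 2.9 by chance. Among the members, Ednrb was 179 CPM on E13.5 brain chip 25 (the others 34.1 to 83.9), Edn3 35.5 on P7 spinal cord chip 23 (others at most 8.77) and Ece1 243 on txE12.5 chip 17 (others at most 138).

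Of the pathway genes, chip 23 was also marked for Itpr2 at 71 (others 1020 or more) and Prkcb at 35.5 (others 311 or more), and P7 spinal cord chip 26 for Prkce at 44.8 and Rgs5 at 559. txE12.5 chip 5 was marked for Prkce at 82, Sox10 at 1140 and Sox9 at 350. On E13.5 brain chips, Itpr2 was 80.8 on chip 24 and Prkce 37.7 on chip 1.

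In data outside the comparisons, Ednrb stood at 565 CPM in the 9 E13.5 spinal cord cells set aside as doublets, above the 18.8 of the highest chip over its kept cells.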

How the results depend on the processing

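No paired analysis was possible because the groups share no replicate numbers. Among the log2 fold changes of the members that were not tested, 101 of 108 values under other settings moved by less than the spread between chips. Under left-out chips 154 of 155 did. That spread is the SD of single chips within groups, which leaving out 1 chip seldom exceeds by construction. The second count is therefore no measure of stability. Without single chips, Ece1 between P7 regions, lines and E13.5 regions and Edn3 between lines took both signs. Ednrb moved to 3.60 between ages in brain with older column names only, to 1.81 between ages in spinal cord with doublets kept, and to -10.2 between P7 regions with older column names only, where spinal cord is chip 23 alone at 0 and the prior count sets the value. Without single chips Ednrb ranged from -3.65 to -2.97 between P7 regions, -0.82 to -0.21 between lines, -0.85 to -0.64 by tracing time, 3.88 to 4.57 by age in brain and 3.28 to 4.51 in spinal cord. In OPC-like cells it ranged from -3.09 to -2.36, -1.05 to -0.47 and -0.46 to -0.34.

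Between regions at E13.5 the Ednrb call was lost with doublets kept (-1.03) and ranged from -3.66 to -2.45 without single chips, and its adjusted p from 0.00187 to 0.689 over all alternatives.

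Pathway calls between P7 regions became 1 without the filter and 11 with older column names only (0 to 9 without single chips). They became 1 between lines by DESeq2, over all cells and in OPC-like cells. By tracing time they became 0 by DESeq2, with doublets kept or in 1 fit over all chips, and 2 without the filter (0 to 1 without single chips). Between ages they became 5 in brain from 2000 molecules per cell or with older column names only (4 to 10), and in spinal cord 0 with chip 9 as labelled and 18 with newer column names only (5 to 18). Between E13.5 regions they became 5 without the filter (1 to 3). In OPC-like cells between P7 regions they became 0 without the filter and 2 with the cycling cluster, a setting chosen after seeing the data (0 to 1). The cause was not tested, except that newer names leave out chip 23. Over all genes, calls between P7 regions went from 1 to 27 by DESeq2, 19 without the filter, 33 in 1 fit and 736 with older names, by tracing time from 13 to 30, 142, 0 in 1 fit and 40 with doublets kept, and between lines from 4 to 30, 17, 0 and 17. Between ages they went from 704 to 404 (2000 molecules) and 1121 (1 fit) in brain and from 1113 to 2277 (newer names) and 0 (chip 9) in spinal cord, and between E13.5 regions from 117 to 176 (DESeq2), 287 (no filter) and 223 (newer names). In OPC-like cells they went from 29 to 113 (cycling cluster), from 13 to 20 (DESeq2) and 7 (no filter), and from 2 to 0 and 7.

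By class, Edn3 of E13.5 VLMC-like cells became 104 at resolution 0.5. At that resolution no COP-like or pericyte-like class formed, so neither the Ednrb level in COP-like cells nor Ednra in pericyte-like cells had a value. With doublets kept, Ednrb in P7 VLMC-like cells went from 68.1 to 220 CPM. Thinned shares were 59.8% for Ednrb in P7 OPC-like cells, 47.9% and 11.2% for Edn3 in VLMC-like cells at P7 and E13.5, and 17.9% for Ednra in E13.5 pericyte-like cells. Depth limits the spinal cord OPC-like values, which rest on 7 to 20 Ednrb molecules per chip.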

Other observations

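Chip 9, which was put in no group, held 74 cells and 719251 molecules. Its Ednrb level was 16.7 CPM, Ednra 48.7, Edn3 58.4 and Ece1 79.2, and Edn1 was at 0. Of its cells, 22 fell in VLMC-like cluster 2, 25 in neuron-like cluster 3, 22 in cluster 7 and 5 in pericyte-like cluster 8, and none in the OPC-like clusters. The 3 chips labelled E13.5 spinal cord ranged from 5.20 to 18.8 for Ednrb and from 46.3 to 75.2 for Ednra.

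In cells set aside for lineage and VLMC markers on the txE12.5 chips, 29 of 61 held Ednrb and 45 held Edn3. On the txP3 chips 5 of 6 held Ednrb and all 6 held Edn3. In the 23 txP3 cells set aside for lineage and neuron markers, 22 held Ednrb and none held Edn3.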
